A study of Mus musculus with 4 samples.

Results

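The genes of the cytosolic ribosome's own proteins were followed through the cell types of irradiated and non-irradiated mouse bone marrow. Members were all features whose symbol has the form of a cytosolic ribosomal protein (Rpl or Rps with a number, and Rplp0, Rplp1, Rplp2 and Rpsa), with pseudogene names left out. This gave 83 genes of 31053 features, 51 of the large 60S subunit and 32 of the small 40S subunit, on 19 chromosomes. One of them, Rpl10l, had 0 counts in all libraries. For comparison, 78 mitochondrial ribosomal protein genes and a few fixed lists were counted in the same way.

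Single cells of tibial bone marrow from C57Bl/6JCrl mice were sequenced by the 10x 3′ method in 4 libraries, with 1 library for every pairing of a genotype with an irradiation state. The controls carried Vegfc flox/flox and no Cre. Vegfc-deleted mice were RosaCreERT2;Vegfc flox/flox, in which Cre is driven from Rosa26, a locus active in nearly all cell types, and acts after tamoxifen. According to the protocol, both genotypes were given 5 doses of tamoxifen into the stomach at 7 to 8 weeks of age, although another line of the labels names tamoxifen for only some of the samples. A total body dose of 4 Gy followed 2 weeks later in the irradiated groups, and cells were taken 7 days after it. The non-irradiated libraries each pooled 3 mice and the irradiated libraries 2 mice, although the protocol has 3 mice of each genotype irradiated. All mice carried the floxed alleles and all received an antibody to VE-cadherin through a vein before the marrow was flushed and digested. The sort kept living cells negative for CD45, Ter119 and the lineage antibodies. With 1 library per group there is no replicate error between mice and no test, so each value stands with its counting interval (exact, 95%), which covers counting error only. Where 4 values follow each other, the non-irradiated pair comes before the irradiated pair, and within a pair the control comes first.

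Ribosomal proteins are needed in nearly equal numbers, because each ribosome holds 1 copy of most of them. The exceptions are the acidic proteins Rplp1 and Rplp2, which sit in several copies on the stalk built on Rplp0 and recruit the elongation factors. Their mRNAs begin with a run of pyrimidines at the cap (the TOP motif) through which growth signals and Larp1 control translation, and they are among the most abundant mRNAs of growing cells. Defects in several of these proteins cause Diamond-Blackfan anaemia, in which red cell production fails, and unassembled Rpl5 and Rpl11 hold back Mdm2 and so raise p53. Irradiation acts on marrow in large part through p53.

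The starts of the members that the results turn on are shown to compare their first bases. They are given from 10 bases before the annotated start, in RefSeq's annotation of build GRCm38.p6, on the gene's strand and 5′ to 3′, and for Rps27l and Rpl3l at the first of their annotated starts. Capitals mark the first run of the letters CTTTC where it occurs, which can begin before the annotated start. A window without capitals can still hold another run of pyrimidines, as in Rps9. The capitals thus do not show which members have a TOP motif at the cap.
Rps27l (chr9:66946076-66946105, + strand): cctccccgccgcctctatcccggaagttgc
Rps27 (chr3:90213629-90213658, - strand): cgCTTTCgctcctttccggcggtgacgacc
Rpl35 (chr2:39005112-39005141, - strand): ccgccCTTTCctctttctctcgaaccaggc
Rpl38 (chr11:114668570-114668599, + strand): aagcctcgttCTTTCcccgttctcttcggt
Rps28 (chr17:33824543-33824572, - strand): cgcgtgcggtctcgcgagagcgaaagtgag
Rpl39l (chr16:10170218-10170247, + strand): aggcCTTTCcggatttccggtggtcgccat
Rpl10 (chrX:74270806-74270835, + strand): tacagtggaagataggccgcctatataagg
Rps3 (chr7:99483690-99483719, - strand): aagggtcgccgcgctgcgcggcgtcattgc
Rps9 (chr7:3704031-3704060, + strand): cttgtctctctttgtctcgggcctgagttc
Rplp0 (chr5:115559457-115559486, + strand): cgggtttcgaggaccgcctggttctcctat
Rpl3l (chr17:24727816-24727845, + strand): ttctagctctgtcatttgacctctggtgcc

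Of these 11 members Rps27, Rpl35, Rpl38 and Rpl39l have CTTTC in the window and the other 7 do not. RefSeq's promoter table matched 63 of the 83 members by symbol. The letters CTTTC on the sense strand within 20 bases of an annotated start occurred in 19 of these 63 members (30.2%) and in 6.44% of all 27025 genes in the table. CCGGAAG, the core of the ETS factor motif, occurred on either strand in 26 of the 63 (41.3%) and in 9.93% of all genes. Rps27l has the CCGGAAG letters just after its start and no CTTTC in the window shown, whereas its paralogue Rps27 has CTTTC both before and just after its start. These are matches of letters and not measured sites.

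The libraries held 67370522, 77284922, 54462123 and 64282090 UMIs, and after filtering 18171 cells remained in all (5058, 5211, 3837 and 4065). Members took 13.4%, 16.6%, 11.2% and 14.2% of each library's UMIs. The non-irradiated control and non-irradiated Vegfc-deleted libraries shared 117 cell barcodes, and every other pair of libraries shared 13 to 24. These libraries held 7454 and 7737 barcodes before filtering, and the irradiated ones 5150 and 5134. The cause of the larger number in the non-irradiated pair was not tested. Cells were clustered without the member genes into 35 clusters, of which 4 small ones stayed unnamed. The name of each other cluster rests on fixed marker genes, and is an "-like" call throughout. Vegfc stood at 167, 17.5, 175 and 24.2 counts per 1000000 UMIs (CPM) in LepR+ stromal cells, lower in both Vegfc-deleted libraries. The labels do not name the exons that Cre removes, so 3′ counts check the genotype only in part. Although the sort was against CD45 and Ter119, erythroid cells made up 41.3%, 42.8%, 14.0% and 10.4% of kept cells and neutrophils 2.06%, 8.23%, 3.18% and 27.5%. Irradiated and non-irradiated cells of a stromal class mostly fell in different clusters: cluster 8 held 291 of 310 and 325 of 376 non-irradiated endothelial cells, and cluster 0 held 1384 of 1493 and 668 of 695 irradiated ones. Among LepR+ stromal cells, cluster 1 held 1075 of 1208 and 629 of 756 non-irradiated cells, and cluster 13 held 378 of 441 and 124 of 148 irradiated cells.

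Among the 6 large classes, the member share spanned a wider range between classes of a library than between libraries of a class. The member share was 20.03%, 20.8%, 24.8% and 26.2% of UMIs in B lineage cells. Monocytes or macrophages had 15.9%, 18.4%, 16.3% and 17.6%. Endothelial cells had 10.4%, 11.7%, 9.96% and 11.1%, and LepR+ stromal cells, the mesenchymal cells that make Cxcl12 and Kitl, had 5.22%, 5.24%, 4.26% and 6.48%. The order from B lineage over monocytes or macrophages and endothelium to LepR+ stroma was the same in 4 of 4 libraries. Neutrophils were also low at 3.93%, 4.92%, 5.60% and 5.02%, and they and LepR+ stroma did not keep an order between them. The erythroid class, which mixes early and late cells, had 16.5%, 20.6%, 10.9% and 21.1%. It differed most between libraries among the large classes and kept no fixed place in the order. Osteolineage cells, of the same mesenchymal family as LepR+ stroma, had 12.8%, 11.2%, 9.27% and 9.40%, from as few as 7 cells in a library. T or NK cells reached 30.8%, 22.5% and 26.3% in the 3 libraries that held them. Plasma cells, which secrete antibody at a high rate, had 7.73%, 7.96%, 8.68% and 9.66%, below the other B lineage cells in all 4 libraries. They numbered 16, 13, 57 and 64 cells, with medians of 3923.5, 1136, 1601 and 1839.5 UMIs. Immunoglobulin genes such as Igkc and Ighm were among their leading genes, and the part of these in the share was not tested.

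The share also varied between cells of a class with their depth. In LepR+ stroma the third of cells with the fewest UMIs had a median of 3.68%, 2.85%, 3.04% and 2.49% and the third with the most had 5.43%, 5.32%, 4.15% and 5.80%. In endothelium the shallow and deep cells were closer, at 9.58%, 11.0%, 8.47% and 10.1% against 10.8%, 11.6%, 10.3% and 11.5%. A set of LepR+ cells in cluster 22 stood apart with medians of 1.22%, 1.52%, 1.03% and 1.29% of UMIs. The balance of the subunits moved little. UMIs of 60S members exceeded those of 40S members by a ratio of 1.24 to 1.29 in LepR+ stroma and 1.11 to 1.16 in endothelium, and the ratio was 0.970 to 1.06 in neutrophils.

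**Figure D1:**
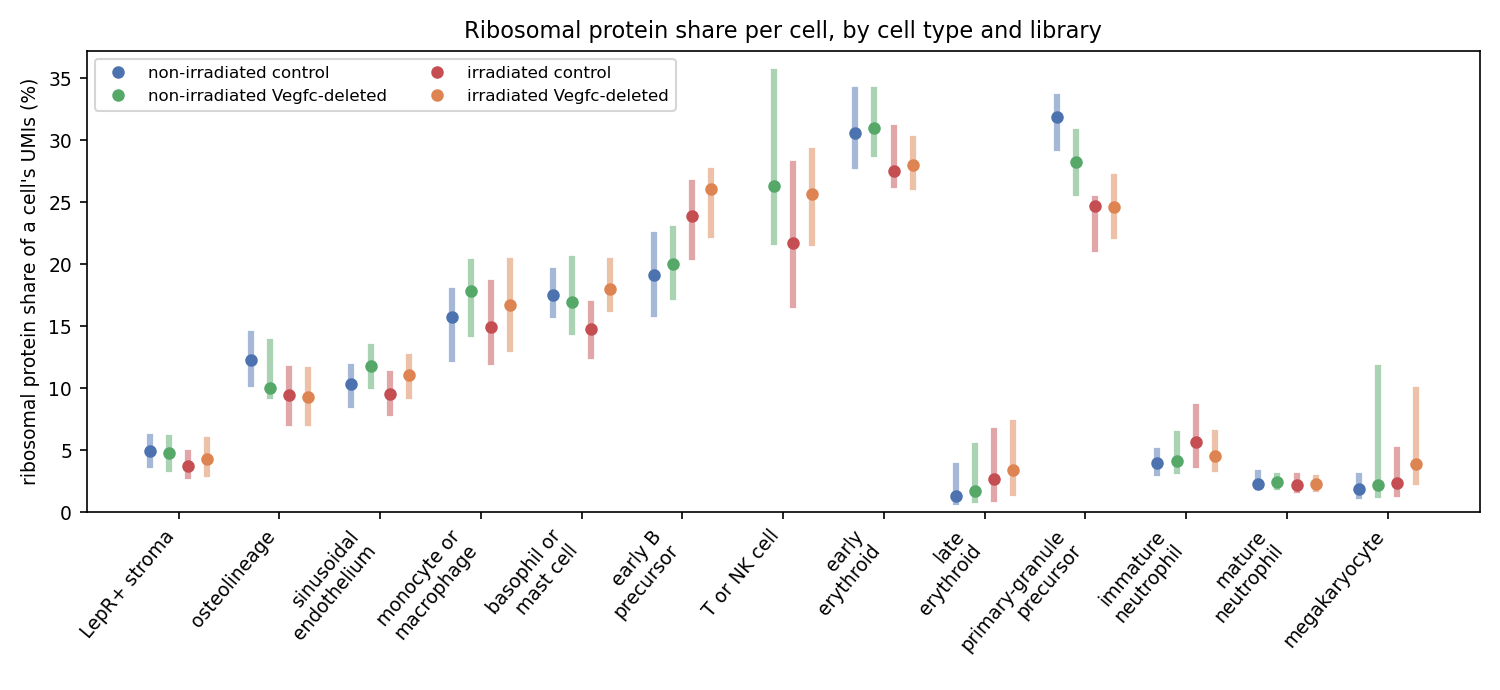
Ribosomal protein share of a cell's UMIs (vertical axis, percent) by cell type (horizontal axis) and library (colour). Points are medians over cells and bars the quartiles, which describe cells and not replicates. Late erythroid cells, megakaryocytes, mature neutrophils and LepR+ stroma sit low, with medians from 1.28% to 4.95%, and early erythroid cells and primary-granule precursors sit high, with medians from 24.6% to 31.9%.

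Along the 2 blood lineages with ordered stages, the share was higher in early than in late cells. Early erythroid cells, the precursors with Car1 and Gata1, gave 30.6%, 30.7%, 27.3% and 27.6% of their UMIs to members. Late erythroid cells, which fill with haemoglobin, gave 6.11%, 6.11%, 4.72% and 6.26%, and their medians per cell were lower, at 1.28%, 1.67%, 2.71% and 3.38%. With clusters ordered by their early less their late marker score, the median per cell was 29.6%, 30.2%, 27.4% and 27.6% in the first (cluster 19). It was 32.9%, 33.5%, 30.8% and 32.2% in the next (cluster 18) and 0.727%, 0.890%, 1.07% and 1.37% in the last (cluster 3). Cluster 18 had medians of 2439, 2460, 1524 and 3477 UMIs per cell against 74200, 62327, 69743 and 66168 in cluster 19, and the immune genes Il12b, Ccr7 and Traf1 were among its leading genes beside Car1. Granulocytes showed the same order. Precursors with the primary-granule genes Elane and Mpo had 31.1%, 28.8%, 23.3% and 25.1%, immature neutrophils 4.99%, 6.54%, 7.55% and 6.34%, and mature neutrophils 2.93%, 2.58%, 3.09% and 2.69%. The irradiated control library held only 5 of these precursor cells. A share of UMIs is lowered by any abundant transcript in the same cells. Haemoglobin took 30.2%, 22.1%, 40.8% and 16.9% of the UMIs of the whole erythroid class. It took 0.973%, 0.565%, 0.617% and 0.573% in early and 51.8%, 52.7%, 55.9% and 54.5% in late erythroid cells. The neutrophil granule list, with Camp and Ltf, took 1.06%, 2.45%, 6.89% and 4.79% in primary-granule precursors. It took 46.2%, 43.0%, 38.1% and 41.5% in immature and 32.9%, 35.6%, 34.5% and 37.9% in mature neutrophils. The part of these transcripts in the order of stages was not tested.

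**Figure D2:**
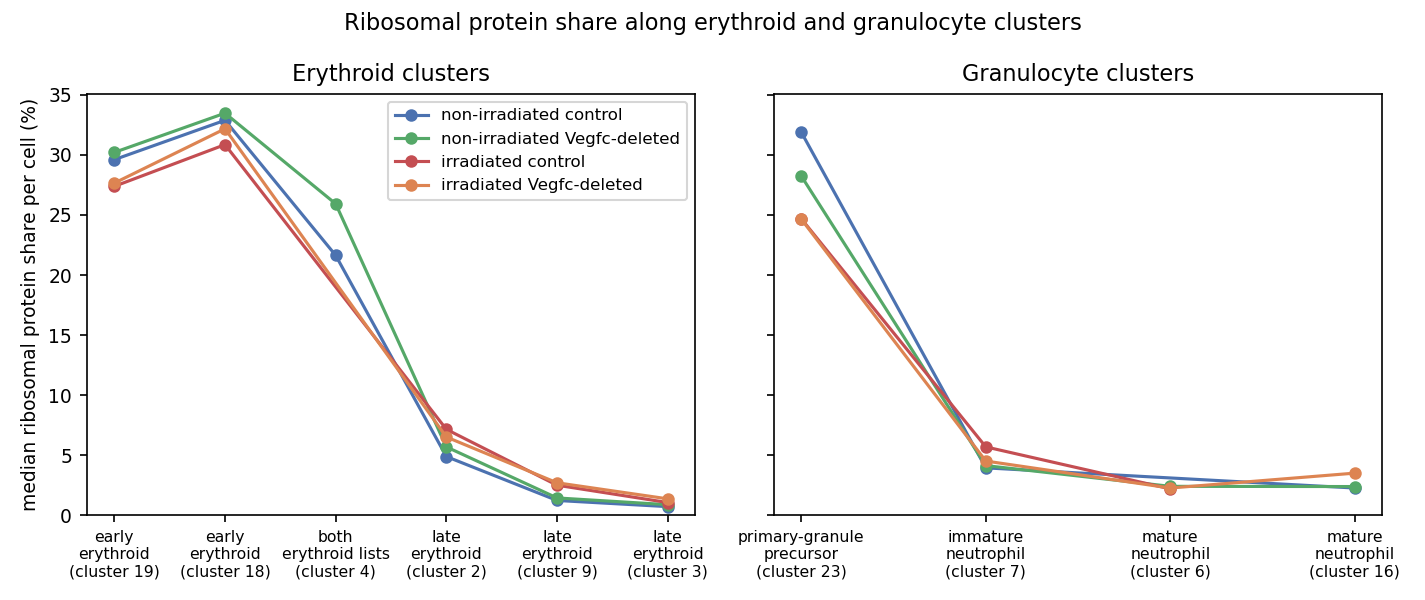
Median ribosomal protein share per cell (vertical axis, percent) along the erythroid clusters (left) and granulocyte clusters (right), with 1 line per library. Erythroid clusters run on the horizontal axis from early to late by marker score, and granulocyte clusters 6 and 16 are both mature. A point needs at least 5 cells, so the irradiated libraries have none in cluster 4. The medians lie between 27.4% and 33.5% in the first 2 erythroid clusters and between 0.727% and 1.37% in the last.

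Members did not keep equal shares of the ribosomal protein total as cells matured. Departure is used below for the log2 change of a gene's share of that total, which leaves out the level of the group as a whole. The genes in this paragraph were chosen after their values were seen. In late against early erythroid cells Rps29, a 40S protein, departed by 0.92, 0.94, 0.86 and 0.71, and Rpl41, the smallest member, by 0.68, 0.59, 1.23 and 1.06. Rpl32 went the other way in all 4 libraries, with departures of -0.83, -0.82, -1.03 and -0.81. Rpl7l1, a relative of Rpl7, departed by -0.98, -0.94, -1.45 and -1.35. In mature against immature neutrophils the 40S genes Rps27 (1.35, 1.45, 0.87 and 1.02) and Rps9 (0.85, 1.29, 1.16 and 1.20) took larger shares. Rpsa, the laminin receptor homologue of the 40S subunit, took smaller ones (-1.06, -1.38, -1.05 and -1.28). Rps9 was already higher in immature neutrophils than in primary-granule precursors, by 1.02, 0.73, 0.92 and 1.08. For Rps27, erythroid maturation gave 0.45 and 0.44 without irradiation and -0.42 and -0.43 with it, so its direction was not shared.

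Across the 6 large classes, most members kept close to the same share of the total. Of 79 members with at least 30 counts in every class and library, the median range of departure over classes was 0.55 on the log2 scale, and 11 spanned more than 1. Members were named for being widest or narrowest, so their widths are a description. Rps27a, which is made as a fusion with ubiquitin, was widest, at 0.86 in neutrophils and -0.47 in endothelium. Rps9 was at 0.87 in neutrophils, from 0.93, 0.73, 0.82 and 0.97 in the 4 libraries. In erythroid cells 3 genes stood above the rest, Rps2 (0.84), the stalk base Rplp0 (0.66) and the stalk protein Rplp1 (0.56), each in 4 of 4 libraries. Rplp1 was at -0.64 in neutrophils. In endothelium the high genes were Rps3, at the mRNA entry of the 40S subunit (0.81, 0.83, 0.55 and 0.71), and Rps27 (0.44, 0.58, 0.50 and 0.64). Rps3 was at -0.38 in LepR+ stroma. The leading genes in LepR+ stroma were both paralogues, Rpl22l1 at 0.94, 0.78, 0.75 and 0.55 and Rps27l at 0.57, 0.59, 1.10 and 0.91. At the narrow end Rps3a1, Rps15a and Rps23 spanned 0.12, 0.19 and 0.22 over all 6 classes.

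As counts, Rps3 stood at 2418, 2870, 1536 and 2362 CPM in endothelium and at 514, 558, 347 and 649 CPM in LepR+ stroma. Rps9 stood at 1360, 1551, 1925 and 2053 CPM in neutrophils and at 1596, 1931, 1677 and 1952 CPM in endothelium. Its CPM in the 2 classes overlapped, although neutrophils had the smaller member share in all 4 libraries. Rps27l stood at 159, 170, 360 and 441 CPM in LepR+ stroma, so its high departure there did not mean the highest CPM. B lineage cells had 282, 306, 679 and 703 CPM and monocytes or macrophages 323, 430, 622 and 605 CPM. Its CPM in neutrophils is not given. The 19 members linked to Diamond-Blackfan anaemia did not stand apart as a list, with median departures between -0.08 and 0.09 in the 6 classes. The 4 X-linked members had medians from -0.23 in neutrophils to 0.17 in endothelium. Rpl5 and Rpl11, which bind Mdm2, had medians of 0.15 in endothelium and -0.17 in neutrophils.

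**Figure D3:**
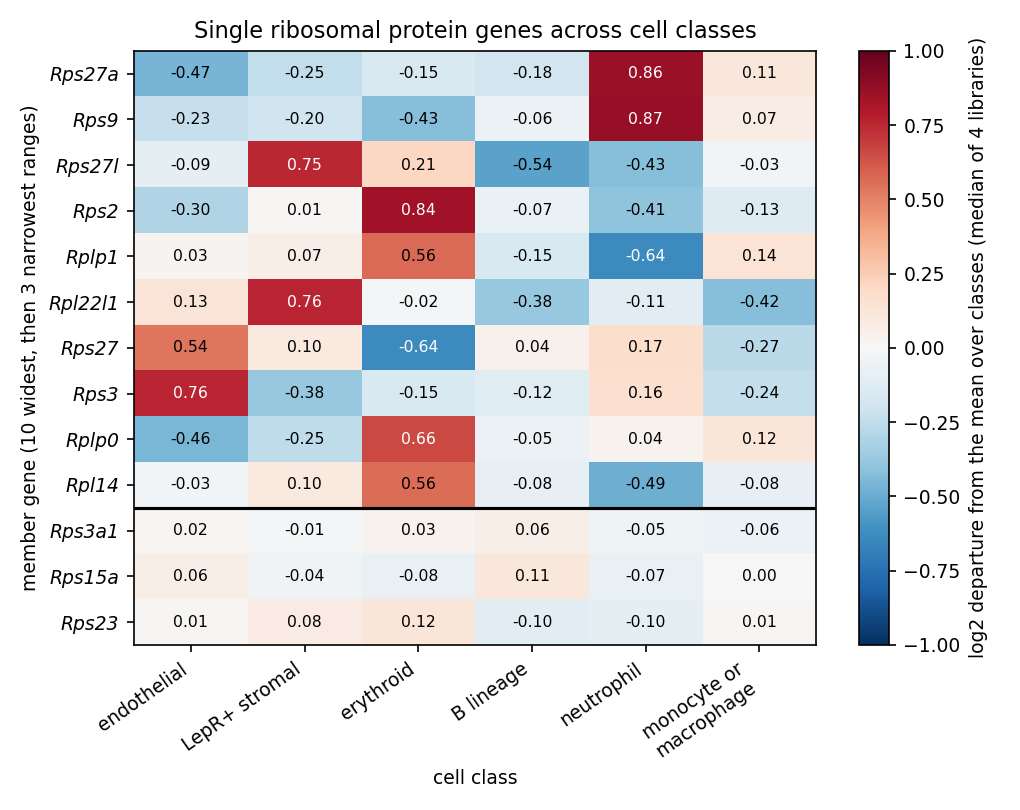
Log2 departure of single members (rows, the 10 widest above the line and the 3 narrowest below) in the 6 large classes (columns), as the median of 4 libraries; red is a larger and blue a smaller share of the ribosomal protein total than the mean over classes. Neutrophils stand out for Rps27a (0.86) and Rps9 (0.87), erythroid cells for Rps2 (0.84), and LepR+ stroma for Rps27l (0.75) and Rpl22l1 (0.76).

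A pair of low paralogues was found in few cell types. Rpl39l (ENSMUSG00000039209, chr16:10170226-10174911), known in mouse for its expression in the testis, was at 47.6, 49.4, 61.6 and 82.0 CPM in LepR+ stroma. A UMI of it was seen in 28.6%, 26.7%, 34.7% and 33.1% of these cells. In endothelium, with similar medians of 7808 to 10226 UMIs per cell, the irradiated libraries had it in 1.41% and 1.01% of cells and at 1.39 and 2.12 CPM. The non-irradiated endothelial cells had 4 counts and 0 counts, the latter with an upper limit of 0.973 CPM. Erythroid and B lineage cells had at most 3.77 CPM. Osteolineage cells were like LepR+ stroma, at 61.3, 59.0, 58.5 and 67.9 CPM.

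Rpl3l (ENSMUSG00000002500, chr17:24727820-24736143, + strand), known as the form of Rpl3 in striated muscle, was at 54.5, 37.4, 7.29 and 5.19 CPM in B lineage cells, from 242, 194, 46 and 11 counts. The irradiated over non-irradiated log2 ratio was -2.89 for controls and -2.79 for the Vegfc-deleted pair. The B clusters also differed, since cluster 10, which led in irradiated B cells, held 98 of 785, 121 of 786, 291 of 396 and 100 of 129 cells. The part of the clusters in this difference was not tested. In mature neutrophils Rpl3l was at 12.6, 11.7, 18.2 and 7.38 CPM, from 8, 24, 18 and 43 counts. The next gene on the same strand, Msrb1, begins 498 bases after it and was at 1586, 1832, 1349 and 1617 CPM in mature neutrophils. Where the reads of either gene lie was not examined, and the part of Msrb1 in the Rpl3l counts was not tested. LepR+ stromal, endothelial and erythroid cells had at most 1 count of Rpl3l in any library. Other paralogues are uncertain in another way: processed copies share sequence with members, and Rps27rt held 7.80% of the counts of itself and Rps27 together, Rpl27-ps3 5.07% with Rpl27 and Rpl10-ps3 4.04% with Rpl10. Rpl36al, a gene outside the naming rule that encodes nearly the same protein as Rpl36a, held 31.0% of the counts of both.

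With irradiation the share of members differed little in endothelium and in opposite directions in LepR+ stroma of the 2 genotypes. In endothelium the irradiated over non-irradiated ratio of the share was -0.06 on the log2 scale for controls (interval -0.07 to -0.06), and for the Vegfc-deleted pair it was -0.07 (-0.08 to -0.07). In LepR+ stroma it was -0.29 for controls (-0.30 to -0.29), and for the Vegfc-deleted pair it was 0.31 (0.30 to 0.32). The second value rests on 148 cells and on the pooled UMIs, and the median over cells went from 4.79% to 4.33%, a log2 ratio of -0.15. With every cell thinned to 1500 UMIs the ratio was 0.06. Immediate early genes, which digestion of tissue induces, took 3.38%, 3.22%, 1.75% and 0.912% of UMIs in endothelium and 3.78%, 3.91%, 1.79% and 0.793% in LepR+ stroma. Their part in the ratios was not tested.

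Counted gene by gene, 80 members had at least 30 counts in a library of the pair in endothelium and 81 in LepR+ stroma, and the others were not counted. A call is a 1.5-fold difference in CPM. Only Rps27l was higher in irradiated controls, where 18.6% of all genes were called higher, and Rpl10, Rpl35 and Rps3 were lower, where 7.41% were. In Vegfc-deleted mice Rps27l was higher (15.0% of all genes) and Rpl35 lower (7.31%). The members' median log2 ratio was -0.10 and -0.05, against 0.19 and 0.16 for all genes. In LepR+ stroma of controls, 1 of 81 members was called higher (Rps27l; 17.6% of all genes) and 10 lower (10.4%), among them Rplp0, Rpl3, Rpl8, Rps4x and Rpsa. In LepR+ stroma of Vegfc-deleted mice 9 were called higher (18.4%) and 0 lower (12.1%), and the members' median was 0.29 against 0.15 for all genes. Scaling by TMM (edgeR's trimmed mean) moved all genes of LepR+ stroma by -0.22 and -0.20. This gave member medians of -0.51 and 0.09, against -0.06 and -0.05 for all genes. With it 31 and 3 members were called, and the share of all genes called under this scaling is not given. In endothelium the same scaling moved all genes by -0.09 and -0.12 and left the members' medians below 0, at -0.19 and -0.17.

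B lineage and early erythroid cells went in different directions from each other, and alike in both genotypes. B lineage cells had a share ratio of 0.31 (0.30 to 0.31) for controls, and the Vegfc-deleted pair had 0.34 (0.33 to 0.34). Of 81 members, 21 were called higher (21.4% of all genes) and 1 lower (22.2%) in controls, and 14 higher (15.1%) and 2 lower (26.9%) in Vegfc-deleted mice. The members' medians were 0.24 and 0.34, against -0.00 and -0.13 for all genes. Cells of the B class were also deeper after irradiation, with medians of 4873, 5171, 12550.5 and 12809 UMIs, and cell cycle genes took 0.171%, 0.261%, 0.421% and 0.471% of their UMIs. Within cluster 5 alone the median share was 18.8%, 19.7%, 20.5% and 21.5%, and within cluster 10 it was 21.7%, 21.1%, 24.8% and 26.3%. Early erythroid cells had ratios of -0.17 (-0.17 to -0.16) and -0.15 (-0.16 to -0.15). Their median depth was 4301, 8186, 19493 and 54122.5 UMIs per cell, and cluster 18 held 110 of 177, 179 of 344, 23 of 51 and 45 of 128 of them. Within cluster 19 alone the median share was 29.6%, 30.2%, 27.4% and 27.6%. The part of depth and clusters in the ratios of both classes was not tested. In early erythroid cells 0 members were called higher (23.7% of all genes) and 6 lower (9.78%) in controls, and 1 higher (Rpl7l1; 14.5%) and 3 lower (Rpl10, Rpl35 and Rps4x; 10.5%) in Vegfc-deleted mice.

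Single members took other parts of the total with irradiation, and among the 79 members with at least 30 counts in every class and library Rps27l differed most in endothelium and LepR+ stroma. Rps27l (ENSMUSG00000036781, chr9:66946086-66949516) is a paralogue of Rps27 known from human cells as a p53 target. In endothelium it stood at 169, 197, 468 and 450 CPM, so that both irradiated libraries were above both non-irradiated ones. The log2 ratio was 1.46 (interval 1.34 to 1.60) for controls, and for the Vegfc-deleted pair it was 1.19 (1.07 to 1.31). In LepR+ stroma it stood at 159, 170, 360 and 441 CPM, with log2 ratios of 1.18 (1.08 to 1.28) and 1.37 (1.23 to 1.52). In B lineage cells it stood at 282, 306, 679 and 703 CPM, with 1.27 (1.18 to 1.36) and 1.20 (1.10 to 1.30). As a departure from the member total, Rps27l passed 1.5-fold in both genotypes in 4 of 6 classes. One of these is the erythroid class, in which cluster 4 held 413 and 494 non-irradiated but 4 and 2 irradiated cells, and in early erythroid cells alone the departures were 0.63 and 0.53, the second under 1.5-fold. Neutrophils were the class with the least, at 0.04 (-0.29 to 0.38) and 0.11 (-0.03 to 0.26), so a change was not detectable there at this depth. Mature neutrophils were also split by irradiation, with 76 of 77 and 289 of 298 non-irradiated cells in cluster 16 and 78 of 79 and 617 of 623 irradiated cells in cluster 6. Its partner Rps27 went the other way in all 12 comparisons of class and genotype, from -0.10 to -0.999, and in B lineage cells stood at 3460, 2485, 2488 and 1569 CPM.

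The 12 comparisons share each class and each library's total, and so are not independent. Counts of members that keep a direction in all 12 stand here without a matching count over all genes. How usual such agreement is among genes was not tested. With 80 members counted in all 12, 9 took a larger share after irradiation in all of them. They included Rps27l, Rpl23a (0.24 to 0.77), Rps15, Rps12, Rpl31, Rpl27, Rplp1 and Rps19, the gene most often mutated in human Diamond-Blackfan anaemia (0.01 to 0.50). A smaller share in all 12 was taken by 8 members, among them Rpl35 (-0.67 to -1.03), Rpl10 (-0.40 to -0.77), Rps27, Rpl21, Rps7, Rpl6 and Rps3a1. Rpl35 (chr2:39001580-39005624) lies at the exit tunnel of the large subunit and stood at 461, 392, 270 and 199 CPM in endothelium and 273, 193, 140 and 138 CPM in LepR+ stroma. Rpl10 (chrX:74270812-74273135), which joins the large subunit last and helps to build the catalytic centre, stood at 1046, 1243, 617 and 830 CPM in endothelium. In endothelium Rps3, high in that class, was also lower in irradiated controls at 1536 against 2418 CPM, and at 2362 against 2870 CPM in Vegfc-deleted mice.

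**Figure D4:**
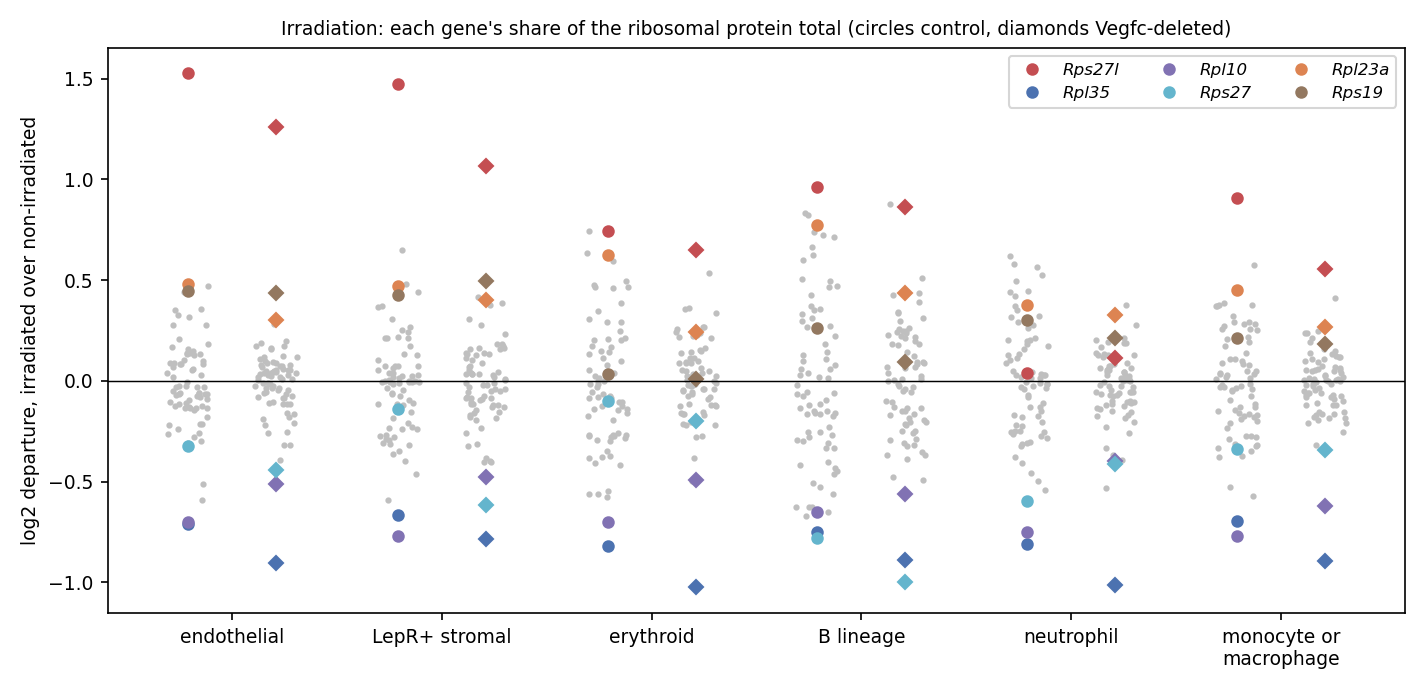
Log2 departure of each member's share of the ribosomal protein total, irradiated over non-irradiated (vertical axis), in 6 classes (horizontal axis); circles are controls, diamonds Vegfc-deleted mice, and grey points the other members of the 79 with at least 30 counts in every class and library. Rps27l stands above these others in endothelium (1.53 and 1.26) and LepR+ stroma (1.47 and 1.07), and Rpl35 and Rpl10 stand below 0 in all 12 comparisons.

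Lists outside the members did not all follow them, and each count is set beside the share of all genes called in the same comparison. Of the p53 targets in endothelium, 14 of 19 were called higher and 1 lower in irradiated controls, with a median of 1.46. Of all genes, 18.6% were called higher and 7.41% lower there. In Vegfc-deleted mice 11 of 18 targets were called higher and 3 lower, with a median of 0.87 (15.0% of all genes higher and 7.31% lower). The targets in LepR+ stroma were 13 of 17 and 9 of 15 higher (17.6% and 18.4% of all genes). In B lineage cells, where Rps27l was higher too, 4 of 13 were called higher and 4 lower in controls (21.4% and 22.2% of all genes). The count for Vegfc-deleted mice is not given. The summed counts of the p53 list, which follow its most abundant genes, took 0.338%, 0.302%, 0.330% and 0.245% of UMIs in endothelium. They took 0.195%, 0.194%, 0.263% and 0.227% in LepR+ stroma and 0.134%, 0.128%, 0.0645% and 0.0688% in B lineage cells. This share was thus higher after irradiation in both genotypes in LepR+ stroma, and lower in endothelium and B lineage cells. Ribosome assembly factors, which act in the nucleolus, were mostly higher in irradiated B lineage cells. There 25 and 24 of 30 were called higher and 0 lower, with medians of 1.13 and 1.14. Of all genes, 21.4% and 15.1% were called higher there and 22.2% and 26.9% lower. In early erythroid cells 13 and 14 of 30 assembly factors were called higher and 0 lower, with medians of 0.53 and 0.55. Of all genes, 23.7% and 14.5% were called higher there and 9.78% and 10.5% lower, while the member share was lower. Mitochondrial ribosomal proteins had medians of 0.25 and 0.28 in endothelium, close to the 0.19 and 0.16 of all genes. There 7 and 10 of 77 were called higher, a smaller part than the 18.6% and 15.0% of all genes. Elongation factors and other TOP mRNAs had medians of -0.16 and -0.16 in endothelium and -0.39 and 0.32 in LepR+ stroma, the same signs as the members, beside 0.16 and 0.15 for all genes of LepR+ stroma. Rack1, the scaffold of the 40S head, and Fau, a ubiquitin-like fusion outside the naming rule, stood at 777, 909, 725 and 876 CPM and at 1748, 2153, 1659 and 1914 CPM in endothelium.

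Between genotypes, endothelium of Vegfc-deleted mice had the larger share in both states. The log2 ratio of Vegfc-deleted over control was 0.17 (0.16 to 0.18) without irradiation and 0.16 (0.16 to 0.16) with it. Of 80 members, 0 were called higher (4.59% of all genes) and 0 lower (3.62%) without irradiation. With irradiation 1 was called higher (Rps3; 3.04%) and 3 lower (Rpl38, Rps28 and Rps29; 6.34%), and the members' medians were 0.22 and 0.23 against 0.02 and -0.01 for all genes. In LepR+ stroma the ratio was 0.01 (-0.00 to 0.01) without irradiation, with 0 of 81 members called higher (2.21%) and 1 lower (Rps29; 4.41%). With irradiation it was 0.60 (0.59 to 0.62), and 51 of 81 members were called higher (8.37%) and 0 lower (11.2%). This last value is smaller per cell, at 0.22 for the median over cells. With cells thinned to 1500 UMIs it was 0.34 with 21 members called, and the share of all genes called after thinning is not given. The irradiated Vegfc-deleted LepR+ cells had a UMI of Ptprc, the gene of CD45, in 4.05% of cells against 1.13% in irradiated controls, and the ratio without those cells was 0.62. All genotype comparisons rest on 1 library a side, so that genotype and the preparation of a library cannot be told apart.

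The genotypes also differed in which members made up the total, and the smaller shares lay mostly with members of short coding sequence. Of 80 members, 12 took a smaller share in Vegfc-deleted libraries in all 12 comparisons of class and irradiation, and 8 a larger share. These counts too stand without a matching count over all genes. The lowest of the 12 members was Rps29 (chr12:69157722-69159186; 168 coding bases), with departures from -0.55 to -1.24. It stood at 2494, 1919, 2267 and 1389 CPM in endothelium, 4066, 2826, 4964 and 2540 CPM in B lineage cells and 1170, 775, 933 and 725 CPM in LepR+ stroma, the Vegfc-deleted library being the lower in each pair. Next were Rps28 (207 coding bases; -0.41 to -1.03), Rpl38 (210; -0.37 to -0.99), Rps27 (252; -0.41 to -0.95), Rpl35 (369; -0.39 to -0.64) and Rpl41 (75; -0.15 to -0.97). The other 6 were Rps21, Rpl37a, Rpl39, Rpl37, Rpl36 and Rpl6. The 8 with a larger share included Rpl13, Rpl18, Rpl19, Rpl23, Rps6, Rps10 and Rps16, and the 8 had medians from 0.07 to 0.28.

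Taken as a set, chosen after these values were seen, the 11 members with under 300 coding bases held 16.4%, 12.9%, 17.6% and 11.5% of member UMIs in endothelium. They held 16.03%, 12.6%, 18.2% and 11.5% in LepR+ stroma, 13.7%, 10.7%, 17.4% and 10.2% in erythroid cells and 14.8%, 11.9%, 16.6% and 10.2% in B lineage cells. In all 6 classes, and so in 12 of 12 pairs, the Vegfc-deleted library was the lower. Among the 79 members in endothelium, the median genotype departure without irradiation was -0.31 under 300 bases. It was 0.06, 0.08 and 0.06 in successive bins of longer members, the last of 600 bases and over, and so did not rise steadily with length. With irradiation the medians from the shortest bin to the longest were -0.57, -0.01, 0.23 and 0.16. Over 79 members in each class, Spearman's rho between coding length and departure was 0.59 to 0.72 with irradiation and 0.24 to 0.52 without, where the points share the same libraries. Irradiated against non-irradiated controls gave -0.11 to -0.56, short members there taking the larger share in the irradiated library. The Vegfc-deleted pair gave -0.11 to 0.20, and the 10 short members among the 79 had negative medians in 5 of 6 classes there (-0.12 to -0.24) and 0.01 in erythroid cells. Rps27l has 252 coding bases like Rps27, yet its median genotype departure was -0.01 and its direction was mixed, 6 comparisons higher and 6 lower. Other coding genes of under 300 bases had median log2 ratios of Vegfc-deleted over control in endothelium of 0.15 without irradiation and 0.12 with it, against 0.00 and -0.03 for genes of 600 bases and over. In LepR+ stroma these short genes had -0.02 and 0.24 against 0.00 and -0.10. Without irradiation they were the lower also in erythroid cells (0.34 against 0.36) and B lineage cells (0.03 against 0.04), while with irradiation they were the higher in all 6 classes. Whether fragment size or another step of the library preparation moved with genotype was not tested, and the files used here give no value for it.

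**Figure D5:**
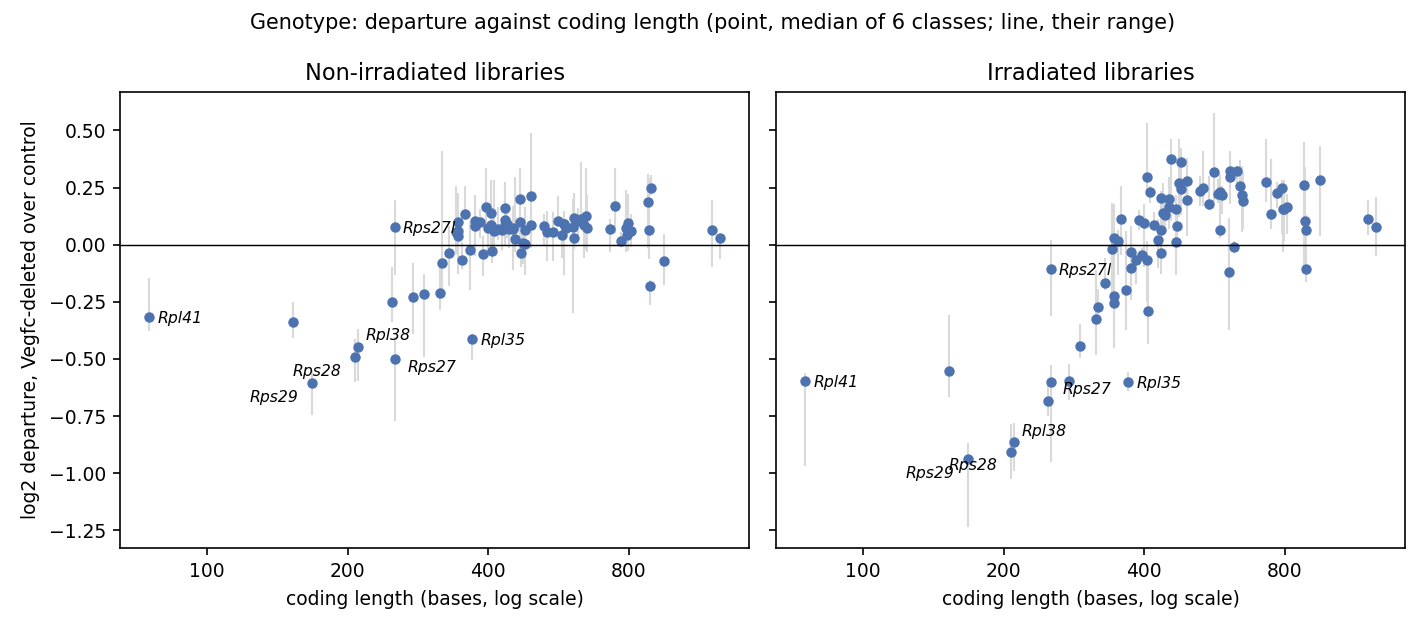
Log2 departure of each member's share of the ribosomal protein total, Vegfc-deleted over control (vertical axis), against coding length in bases (horizontal axis, log scale), without irradiation (left) and with it (right); points are medians of 6 classes and lines their range. Of the members under 300 bases, Rps27l lies near 0 and the others below 0 in both panels, with Rps29 lowest over the 12 comparisons (median -0.81).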

How the data were processed

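The deposited matrices hold whole UMI counts for each gene in each barcode of 4 libraries, without normalization. Per the submitters' processing notes they used Cell Ranger 2.1.1 and build mm10, whereas the file headers record software 3.1.0. Further counting options were not stated. Scrublet (scanpy 1.11.5) scored all barcodes of a library before filtering, and the highest scores were marked as doublets, at 0.8% per 1000 unfiltered barcodes. Marked doublets were left out, as were barcodes with fewer than 500 genes or over 10% mitochondrial UMIs. Log-scaled counts of 2000 variable genes, with members excluded, gave 40 principal components, 20 neighbours and Leiden clusters (leidenalg 0.10.2, resolution 1, seed 7), named from fixed marker lists. Counts were summed per class and library. CPM is per 1000000 UMIs of the class, and a call needs a 1.5-fold difference and at least 30 counts in 1 library of a pair. Log2 ratios carry a prior of 0.5 counts. Intervals (95%) are exact: Clopper-Pearson for shares, Poisson for CPM, conditional for ratios. UMIs of 1 library are not replicates, so no test was made. The scripts were tested on simulated data.

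Named members were the 10 widest and 4 narrowest across classes, and in each class the 4 highest and 4 lowest by the departure nearer to 0 in both contrasts, together with paralogues and fixed lists. Values of a few single members are not reported here. The members, lists and rules were chosen with earlier results of these data known. The coding length relation, the limit of 300 bases and the maturation genes were chosen after the values were seen. Coding lengths are those of GENCODE's principal transcripts. Alternatives were another cell filter, doublets kept, another resolution, thinning, medians over cells, TMM (edgeR 4.0.16) and other count limits. Leaving out cells with a Ptprc UMI was added after the data were seen.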

Additional observations from a re-analysis of the deposited data

Results flagged for a closer look

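In 3 classes the irradiated over non-irradiated ratio of the ribosomal protein share had opposite signs in the 2 genotypes. In LepR+ stroma it was 0.306 on the log2 scale in Vegfc-deleted mice and -0.293 in controls. In the erythroid class, which mixes early and late cells in different proportions, it was 0.0365 and -0.601. In monocytes or macrophages it was -0.0603 and 0.0358, and the control value changed sign when thinned and as a median over cells. This class also joins clusters in different proportions. Cluster 14 held 39, 70, 88 and 244 of its cells and cluster 17 held 5, 8, 50 and 301. Cluster 20 held 21, 118, 23 and 148. With 1 library per group the difference was not tested. The median over cells gave -0.15 for LepR+ stroma of Vegfc-deleted mice, the same sign as in controls (-0.41).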

How the results depend on the processing

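No paired analysis was possible because each group is 1 library and the labels give no replicate numbers, and for the same reason no library could be left out. Values below are log2 ratios of the ribosomal protein share unless a count is named. For endothelium, irradiated over non-irradiated in controls (-0.06), thinning gave -0.079, the looser filter -0.043, doublets kept -0.083, the median over cells -0.11, leaving out haemoglobin, granule and mitochondrial UMIs -0.077, and sinusoidal clusters alone -0.075. In Vegfc-deleted mice (-0.07) thinning gave -0.086, the looser filter -0.016, doublets kept -0.093, the median over cells -0.086 and leaving out the abundant UMIs -0.082. Vegfc-deleted over control without irradiation (0.17) was 0.18 thinned, 0.19 with the looser filter, 0.19 as a median and 0.18 in sinusoidal clusters. With irradiation (0.16) the same settings gave 0.18, 0.22, 0.21 and 0.18.

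In LepR+ stroma of controls, irradiated over non-irradiated (-0.29) was -0.31 thinned, -0.27 with the looser filter, -0.20 with doublets kept, -0.27 with members allowed among the clustering genes, -0.34 at resolution 2, -0.41 as a median and -0.31 without haemoglobin, granule and mitochondrial UMIs. In Vegfc-deleted mice (0.31) it was 0.059 thinned, 0.23 with doublets, 0.40 with members allowed, 0.25 at resolution 2 and 0.32 without Ptprc cells. It turned to -0.15 as a median over cells. Vegfc-deleted over control without irradiation (0.01) was 0.13 with doublets, but -0.031 thinned, -0.018 with the looser filter, -0.017 at resolution 2, -0.047 as a median and -0.00235 without the abundant UMIs. With irradiation (0.60) it was 0.34 thinned, 0.55 with the looser filter, 0.56 with doublets, 0.68 with members allowed, 0.58 at resolution 2, 0.62 without Ptprc cells, 0.22 as a median and 0.62 without the abundant UMIs.

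The counts of members that follow stand without the share of all genes called at the same changed setting. Counts of members past 1.5-fold in LepR+ stroma were 51 between irradiated genotypes, but 4 at a fold of 2 and 21 thinned. Between non-irradiated genotypes 1 became 2 with no count filter, 2 thinned, 0 at a fold of 2 and 0 with doublets. For irradiation in Vegfc-deleted mice 9 became 3 with TMM, 1 at a fold of 2, 2 thinned and 5 with doublets. In controls 11 became 31 with TMM, 2 at a fold of 2 and 7 with doublets. In endothelium 4 became 0 (genotype, irradiated) and 4 became 1 (irradiation, controls) at a fold of 2. There 0 became 1 with no count filter (genotype, non-irradiated), and 2 became 5 with TMM and 1 at a fold of 2 (irradiation, Vegfc-deleted). Classes where Rps27l passed 1.5-fold in both genotypes went from 4 to 3 thinned and 5 with doublets. Members spanning more than 1 across classes went from 11 to 12 at 10 counts and 8 thinned. The order of the classes held in 3 libraries with the looser filter.

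Of 220 departures of single members with irradiation or genotype 5 changed sign. Thinned, Rpl22l1 gave -0.14 in B lineage cells (Vegfc-deleted), 0.025 in LepR+ stroma (controls) and 0.16 in monocytes (Vegfc-deleted), and Rplp1 gave -0.0090 in endothelium (controls). With doublets kept, Rps2 gave -0.12 in neutrophils (controls). Of 112 further share ratios 16 changed sign. For irradiation of the erythroid class these were -0.086 thinned, -0.049 as a median and -0.062 without abundant UMIs in Vegfc-deleted mice, and 0.41 as a median in controls. Monocytes gave -0.0091 thinned and -0.078 as a median in controls, and in Vegfc-deleted mice 0.31 with doublets and 0.41 at resolution 2 and with members allowed. For non-irradiated genotypes resolution 2 and members allowed gave -0.022. Neutrophils gave -0.18 (controls), -0.045 (Vegfc-deleted) and -0.26 (genotype, non-irradiated) with doublets, and 0.044 and -0.044 as medians for the irradiated and non-irradiated genotypes. With doublets, at resolution 2 and with members allowed, a cluster led by F13a1 and Ccr2, named as monocytes otherwise, was unnamed. When members were allowed among the 2000 clustering genes 0 were chosen, so that setting shows only how far a rerun of the selection and clustering moves the classes. The cause of these changes was not tested.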
